A study of Mus musculus with 20 samples.

Results

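The 10 genes described carry the insulin signal to glucose uptake, out of 56805 genes counted in white adipose tissue of 20 mice. They were taken by gene symbol, in a choice made with earlier results of these data known. They are the insulin receptor Insr, its inhibitor Grb14, the adaptors Irs1 and Irs2, and the signal relay Pik3r1, Akt2 and Tbc1d4. The others are the glucose transporters Slc2a4 and Slc2a1 and the GLUT4 trafficking regulator Trarg1. All 10 had enough reads to be tested. The levels below are CPM, counts relative to library size after TMM (trimmed mean of M values) scaling between libraries, and libraries are named by group and replicate number.

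The mice formed 4 groups of 5, called high-fat tea, high-fat water, chow tea and chow water after their food and their drink. The food was a high-fat or a chow diet, the drink was plain water or an aqueous extract of Tibetan tea, and feeding lasted 10 weeks in every group. The sources used here do not give strain, sex, age, adipose depot, tea dose or time of killing. The crossed design asks what the high-fat diet did with and without tea, what tea did on either diet, and whether the tea difference depended on diet.

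As background, insulin binds its receptor tyrosine kinase, which phosphorylates the IRS adaptors. These recruit PI3 kinase, whose lipid product activates Akt2, and Akt2 phosphorylates Tbc1d4, a brake on the Rab proteins that send GLUT4 vesicles to the cell surface. In fat cells this route governs insulin-stimulated glucose uptake, which feeds lipid storage, and GLUT4 in fat is known to be lowered in obesity.

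The libraries held 53047057 to 93314761 reads in genes. All 10 adipocyte markers, among them Adipoq and Plin1, were detected in every library, but several libraries also held transcripts of other organs. Pancreas markers summed to 537211 CPM in chow water 1, which was 31.1% of its reads in genes. Its TMM factor of 0.587, against 0.913 for the next lowest library, raises every CPM of chow water 1. Kidney markers summed to 27695 CPM in high-fat tea 4 and 2078 CPM in chow water 2. Markers of seminal vesicle, epididymis and adrenal summed to 38572 CPM in high-fat water 4. That sum came from Svs4, Svs5, Svs6, Star and Cyp11a1, while the epididymis genes Lcn5, Lcn8, Crisp1 and Defb20 held at most 0.0763 CPM. Summed adipocyte markers were 16548, 17976 and 22019 CPM in chow water 1, high-fat tea 4 and high-fat water 4, and 28670 to 53862 CPM in the other 17. Of the sum in high-fat tea 4, the library with the kidney transcripts, 8155 CPM was Pck1. Every other adipocyte marker was lower in high-fat tea 4 than in any other library. Skeletal muscle markers passed 1000 CPM in 6 libraries, with 34177 CPM in high-fat tea 1, 30208 CPM in high-fat water 5 and 4360 to 8549 CPM in high-fat tea 3, chow tea 1, chow water 2 and high-fat water 3, against 30.2 to 449 CPM in the other 14.

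The 250 bases upstream of the annotated start are shown for Grb14, which had the largest log2 difference of the 10 between the diets in water-drinking mice, and for the adaptor pair Irs1 and Irs2, whose levels were lower on the high-fat diet without passing the test. The RefSeq promoter table (GRCm38.p6) had entries for 7 of the 10 genes. The Grb14 window lies at chr2:65022767-65023016, that of Irs1 at chr1:82291440-82291689 and that of Irs2 at chr8:11008930-11009179, all on the minus strand and printed 5′ to 3′ toward the start. Capitals mark the GC box, GGGCGG on either strand, in Grb14, and the insulin response core, TGTTTTG on either strand, in Irs1 and Irs2.
Grb14: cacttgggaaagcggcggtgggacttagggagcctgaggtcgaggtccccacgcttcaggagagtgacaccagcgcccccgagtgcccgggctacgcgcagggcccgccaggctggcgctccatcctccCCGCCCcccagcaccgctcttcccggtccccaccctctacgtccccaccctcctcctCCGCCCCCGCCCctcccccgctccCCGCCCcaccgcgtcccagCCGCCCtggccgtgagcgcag
Irs1: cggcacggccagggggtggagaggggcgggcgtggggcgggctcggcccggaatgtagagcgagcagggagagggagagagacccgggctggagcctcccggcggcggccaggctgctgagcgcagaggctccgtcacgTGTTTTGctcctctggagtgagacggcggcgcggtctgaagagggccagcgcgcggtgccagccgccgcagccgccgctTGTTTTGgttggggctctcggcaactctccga
Irs2: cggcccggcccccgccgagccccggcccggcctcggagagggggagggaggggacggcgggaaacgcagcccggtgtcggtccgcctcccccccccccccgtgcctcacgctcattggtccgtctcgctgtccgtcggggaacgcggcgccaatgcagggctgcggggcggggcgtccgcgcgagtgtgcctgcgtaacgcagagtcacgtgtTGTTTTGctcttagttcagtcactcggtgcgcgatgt
The Grb14 window holds 5 GC boxes, the nearest beginning 21 bases before the start. GC makes up 75.2% of its bases, against a median of 52.4% over all windows. The Irs1 and Irs2 windows have 72.4% and 72.8%. For Pik3r1, which was not called, 1 window holds 4 GC boxes at 76.4% and the other 0 at 42.4%. Of 32851 promoter windows in the table, 32.7% hold at least 1 GC box. The Irs1 and Irs2 windows hold 2 and 1 of them, left in lower case there. Irs1 holds TGTTTTG at 111 and 32 bases before the start and Irs2 at 37, a motif found in 5.56% of all windows. Each of these 2 windows also has 1 E-box, CACGTG, which 6.02% of windows hold, at 115 bases in Irs1, where it shares bases with a TGTTTTG match, and at 44 bases in Irs2. Both motifs occur together in 97 windows, or 0.295%, and this pairing was noticed after the sequences had been read. These are matches of letters and say nothing on what binds there.

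Per exonic length, Trarg1 and Grb14 marked the ends of a wide range of levels. Median levels over the 20 libraries, in CPM per kilobase of exon (RPKM), were 146 for Trarg1, 64.4 for Akt2, 38.2 for Slc2a4, 22.7 for Irs2, 18.0 for Insr and 14.9 for Pik3r1. They were 8.79 for Tbc1d4, 6.21 for Slc2a1, 4.28 for Irs1 and 0.771 for Grb14. Trarg1 exceeded Akt2 in 20 of 20 libraries and Akt2 exceeded Slc2a4 in 19, whereas Insr exceeded Pik3r1 in 13, so this pair of neighbours had no fixed order. Slc2a4 exceeded Irs2 in 16 libraries, Irs2 exceeded Insr in 16, Pik3r1 exceeded Tbc1d4 in 20, Tbc1d4 exceeded Slc2a1 in 17, Slc2a1 exceeded Irs1 in 18 and Irs1 exceeded Grb14 in 17. The Irs1 level is understated, because 30.9% of its exonic bases overlap Gm9747 on the opposite strand and the counting program leaves out reads that fall in 2 genes unless told otherwise.

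**Figure D1:**
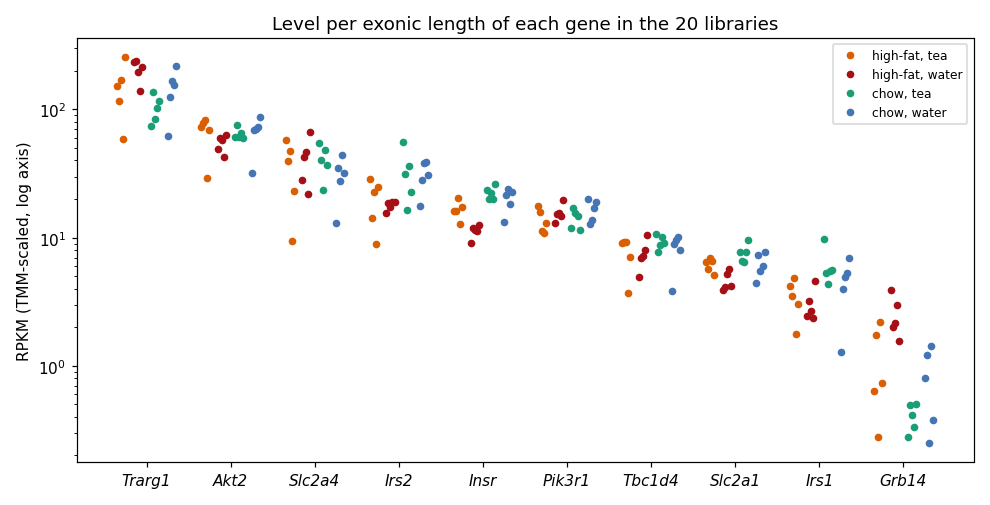
Level of each gene per exonic length in the 20 libraries, in TMM-scaled RPKM on a log axis, with points coloured by group and genes ordered by median. Trarg1 lies highest, at a median of 146 RPKM, and Grb14 lowest, at 0.771 RPKM.

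In water-drinking mice the high-fat diet was accompanied by less Insr transcript and more Grb14 transcript. At an adjusted p below 0.05 (edgeR, quasi-likelihood, Benjamini-Hochberg), Insr was called lower and Grb14 higher, and the other 8 genes were not called. That is 2 of 10, where 15.2% of the 21306 genes tested were called (8.06% higher and 7.11% lower). At an unadjusted p below 0.05 there were 4 of the 10 genes, against 30.8% of all. The median log2 change of the 10 genes was −0.20, and that of all genes tested −0.00. The share of the 10 genes that was called is near that of all genes. The Grb14 call was lost in 8 of 10 fits that left out 1 library. Grb10, an inhibitor of the receptor outside the 10 genes, was called lower (log2 −0.94, edgeR adjusted p = 0.0221). The Grb10 call was lost in 4 of 10 such fits. Grb14 and Grb10 were thus called in opposite directions, and neither call held in every fit.

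In high-fat-fed mice, tea went with a higher Insr level, and Insr was the only one of the 10 genes called. The background was 4.36% of genes called (2.06% higher and 2.3% lower), and at an unadjusted p below 0.05 there were 3 of 10 against 23.6%. The median log2 change was 0.09 for the 10 genes and 0.02 for all. In chow-fed mice tea went with no called change among the 10 genes by edgeR or by DESeq2, with 0 of 10 at an unadjusted p below 0.05 against 12.4% of all genes, and 0.0235% of genes were called. In tea-drinking mice the high-fat diet gave no called member by edgeR or DESeq2, with 4 of 10 at an unadjusted p below 0.05 against 16.3%, and 0.178% of genes were called. The interaction of diet and tea was called for none of the 10 by either tool, with 0 of 10 at an unadjusted p below 0.05 against 15% of all genes, and 0.0657% of genes were called. The comparisons of tea and of diet share groups, so their results are not independent of each other.

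**Figure D2:**
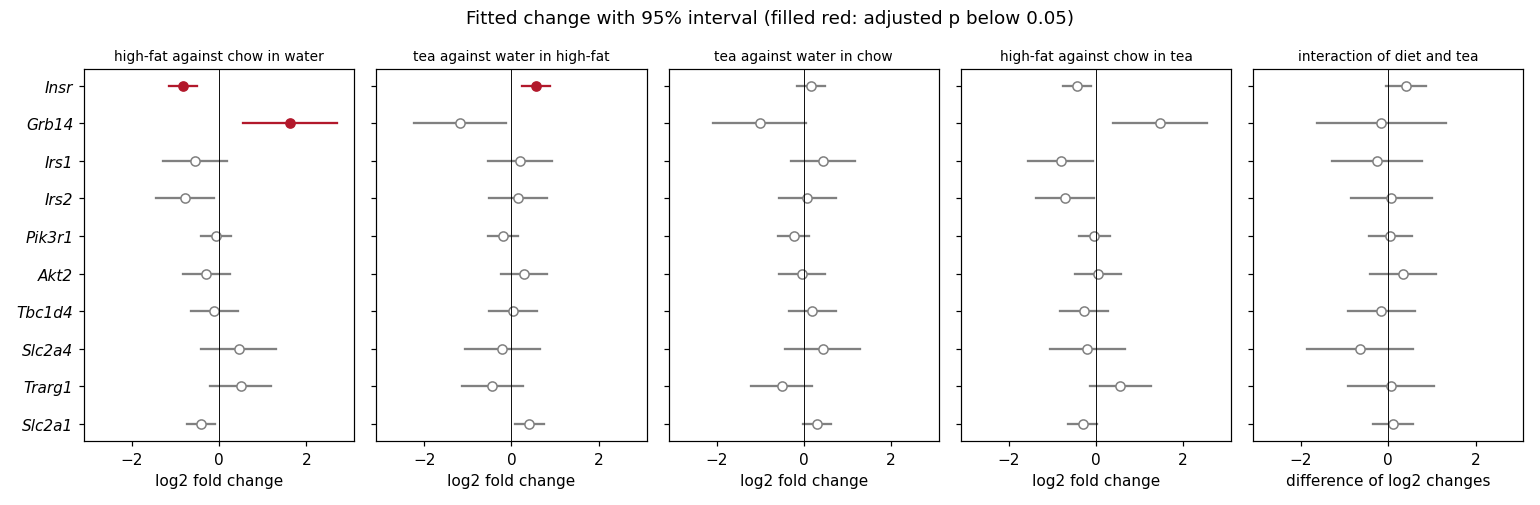
Fitted log2 change of each gene with its 95% interval in the 5 comparisons, filled red where the adjusted p was below 0.05. Insr is red in 2 comparisons, at −0.83 for diet in water and 0.56 for tea on the high-fat diet, and Grb14 in 1, at 1.63 for diet in water.

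Insr (GRCm39 chromosome 8, 3172061 to 3329617, minus strand) encodes the insulin receptor, where the pathway begins. Its level was 223, 223, 279.5, 175 and 240.4 CPM in high-fat tea mice, 125, 163, 158, 154 and 172 CPM in high-fat water mice, 324, 274, 307, 275 and 358 CPM in chow tea mice and 181, 296, 330.3, 254 and 314 CPM in chow water mice. All 5 high-fat water libraries lay below all 5 chow water libraries and below all 5 high-fat tea libraries. The nearest libraries on the other side were chow water 1 and high-fat tea 4, 2 of the 3 with few adipocyte markers. Group means were 228 ± 37.8, 155 ± 18, 307 ± 35.1 and 275 ± 59.7 CPM (SD, n = 5 each), in the same order of groups.

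In water-drinking mice Insr fell by 1.78-fold on the high-fat diet, a log2 change of −0.83 (SE 0.15, edgeR adjusted p = 0.0026). Groups that do not overlap, lower, were found for 5.59% of all genes in this comparison. In high-fat-fed mice Insr rose 1.48-fold with tea, by 0.56 on the log2 scale (SE 0.15, edgeR adjusted p = 0.0456), and 2.37% of all genes had groups that do not overlap in that direction. The tea difference in chow-fed mice was 0.16 (95% interval −0.16 to 0.48), and the diet difference in tea-drinking mice was −0.43 (95% interval −0.75 to −0.11, edgeR adjusted p = 0.194). The interaction, the tea difference on the high-fat diet minus that on chow, was 0.40 (95% interval −0.05 to 0.86, edgeR adjusted p = 0.406), so it was not shown that tea acted differently on the 2 diets.

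The diet difference of Insr in water kept its call in each of the 8 alternative settings and each of the 10 fits that left out 1 library. The tea difference on the high-fat diet did not. It lost its call in 8 of 10 fits without 1 library, namely without high-fat tea 1, 2 or 3 or without any of the 5 high-fat water libraries, at log2 values of 0.48 to 0.65. Without the 6 libraries with muscle transcripts it was 0.55 (edgeR adjusted p = 0.291).

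Macrophage markers differed too for diet in water and for tea on the high-fat diet. Summed macrophage markers ran from 475 to 1888 CPM in high-fat tea mice, 1462 to 3983 CPM in high-fat water mice, 817 to 1572 CPM in chow tea mice and 442 to 1666 CPM in chow water mice, with none of the 10 markers at 0 in any library. Of these 10 markers, 6 were called higher on the high-fat diet in water, against 8.06% of all genes. With tea on the high-fat diet 4 were called lower, against 2.3% of all genes. Cd163 went the other way in both comparisons, uncalled. No marker of the endothelial list or of the fibroblast and progenitor list, with 8 tested in each, was called in either comparison. Of 10 adipocyte markers, 1 was called lower for diet in water and 1 higher for tea on the high-fat diet. Summed adipocyte markers ran from 17976 to 44780 CPM in high-fat tea mice, 22019 to 38638 CPM in high-fat water mice, 39218 to 53862 CPM in chow tea mice and 16548 to 51395 CPM in chow water mice. The part of these cells in the Insr values was not tested. In whole tissue, fewer cells of a type and less RNA per cell cannot be told apart, here or for any gene below.

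**Figure D3:**
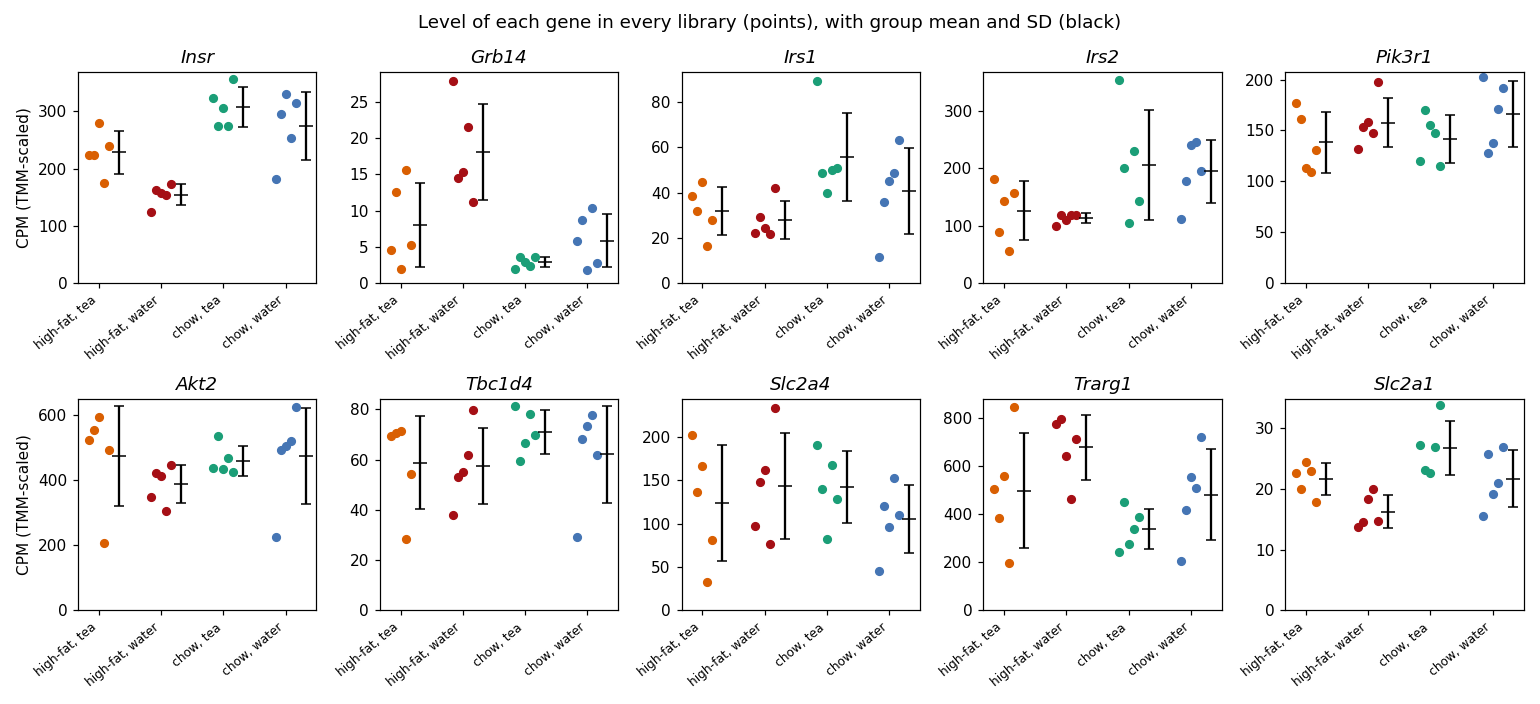
Level of each gene in every library in TMM-scaled CPM, 5 points per group, with the group mean and SD in black. For Insr the 5 high-fat water points, at 125 to 172 CPM, lie below those of chow water (181 to 330 CPM) and of high-fat tea (175 to 279.5 CPM).

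Grb14 (GRCm39 chromosome 2, 64742820 to 64855331, minus strand), whose promoter window is printed above, encodes an adaptor protein that binds the activated insulin receptor and inhibits its kinase. Its level was 4.58, 12.6, 2, 15.7 and 5.28 CPM in high-fat tea mice, 27.9, 14.5, 15.4, 21.6 and 11.2 CPM in high-fat water mice, 1.99, 3.58, 2.95, 2.39 and 3.62 CPM in chow tea mice and 5.8, 8.74, 1.79, 10.3 and 2.7 CPM in chow water mice. The lowest high-fat water library lay just above the highest chow water library, while high-fat tea libraries ranged from chow levels to high-fat water levels. Group means were 8.02 ± 5.81, 18.1 ± 6.62, 2.9 ± 0.719 and 5.87 ± 3.7 CPM (SD, n = 5 each).

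In water-drinking mice Grb14 rose 3.09-fold on the high-fat diet, by 1.63 on the log2 scale (SE 0.51, 95% interval 0.55 to 2.70, edgeR adjusted p = 0.0394). Groups that do not overlap, higher, were found for 7.34% of all genes. The call was lost in 8 of 10 fits that left out 1 library, all but those without chow water 4 or high-fat water 5, at log2 values of 1.40 to 1.93. It was also lost without the 3 libraries with the fewest adipocyte markers, at 1.55 (edgeR adjusted p = 0.0594). The other differences of Grb14 were −1.18 for tea on the high-fat diet (95% interval −2.24 to −0.12, edgeR adjusted p = 0.168), −1.01 for tea on chow (−2.07 to 0.05, 0.43) and 1.46 for diet in tea-drinking mice (0.40 to 2.53, 0.185), on the log2 scale. Grb14 also had the widest spread of the 10, with an SD of log2 CPM over the 20 libraries of 1.25, against 0.27 to 0.71 for the other 9.

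Irs1 and Irs2 encode the adaptors that the receptor phosphorylates, with Irs1 on chromosome 1 (82210822 to 82269137, minus strand) and Irs2 on chromosome 8 (11034681 to 11058458, minus strand) in GRCm39. Irs1 had 38.4, 31.9, 44.7, 16.3 and 27.8 CPM in high-fat tea mice, 22.2, 29.2, 24.3, 21.5 and 42.2 CPM in high-fat water mice, 89.5, 48.5, 39.9, 49.9 and 50.9 CPM in chow tea mice and 11.7, 36, 45.2, 48.5 and 63.1 CPM in chow water mice. Every chow group overlapped its high-fat counterpart, chow tea 1 stood highest of all 20 libraries and chow water 1 lowest. The Irs1 difference for diet was −0.55 in water (95% interval −1.29 to 0.18, edgeR adjusted p = 0.3) and −0.81 in tea (−1.55 to −0.07, 0.268).

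Irs2 had 182, 89.6, 143, 56.2 and 158 CPM in high-fat tea mice, 99.2, 118, 111, 119 and 119 CPM in high-fat water mice, 353, 199.6, 104, 230 and 144 CPM in chow tea mice and 112, 178, 240.4, 247 and 195 CPM in chow water mice. The high-fat water libraries were the most alike, and 4 of 5 chow water libraries lay above them all, with chow water 1 inside their range. The Irs2 difference for diet was −0.78 in water (95% interval −1.44 to −0.12, edgeR adjusted p = 0.101) and −0.71 in tea (−1.38 to −0.05, 0.275), neither called. Without chow water 1, and without the 3 libraries with the fewest adipocyte markers (log2 −0.94, edgeR adjusted p = 0.0315), the Irs2 difference in water was called. Tea differences were 0.19 for Irs1 and 0.15 for Irs2 on the high-fat diet, and 0.45 and 0.08 on chow, none called. Irs2 exceeded Irs1 by 5.74 ± 1.72 times in high-fat tea mice, 6.19 ± 1.41 times in high-fat water mice, 5.23 ± 1.25 times in chow tea mice and 8.11 ± 3.46 times in chow water mice (RPKM ratio, SD, n = 5 each).

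Downstream of the adaptors, none of the 3 relay genes was called in the fit to all 20 libraries. Pik3r1 (GRCm39 chromosome 13, 101817071 to 101904725, minus strand), the regulatory subunit of PI3 kinase, was the steadiest of the 10, with 109 to 177 CPM in high-fat tea mice, 132 to 197 CPM in high-fat water mice, 115 to 171 CPM in chow tea mice and 128 to 203 CPM in chow water mice. Its log2 differences were −0.08 for diet in water (95% interval −0.43 to 0.27) and −0.19 for tea on the high-fat diet (−0.54 to 0.16). None of its 5 comparisons was called.

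Akt2 (GRCm39 chromosome 7, 27290977 to 27340251, plus strand), the Akt kinase most tied to glucose uptake, had 524, 556, 594, 206 and 492 CPM in high-fat tea mice, 348, 424, 413, 306 and 448 CPM in high-fat water mice, 438, 537, 434, 469 and 424 CPM in chow tea mice and 226, 494, 505, 522 and 627 CPM in chow water mice. The 2 lowest libraries were high-fat tea 4 and chow water 1, those with the fewest adipocyte markers. The log2 differences of Akt2 were −0.29 for diet in water (95% interval −0.83 to 0.24, edgeR adjusted p = 0.462) and 0.29 for tea on the high-fat diet (−0.24 to 0.82, 0.531). Without the 3 libraries with the fewest adipocyte markers both were called, at −0.39 (edgeR adjusted p = 0.0228) and 0.41 (edgeR adjusted p = 0.0413).

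Tbc1d4 (GRCm39 chromosome 14, 101679796 to 101846627, minus strand), the Akt substrate that restrains GLUT4 vesicles, had 28.5 to 71.3 CPM in high-fat tea mice, 37.9 to 79.9 CPM in high-fat water mice, 59.5 to 81.3 CPM in chow tea mice and 29.3 to 77.7 CPM in chow water mice. Here too high-fat tea 4 and chow water 1 were the lowest of the 20 libraries. The log2 differences of Tbc1d4 were −0.11 for diet in water (95% interval −0.65 to 0.43) and 0.03 for tea on the high-fat diet (−0.51 to 0.58), and no comparison was called.

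Slc2a4 (GRCm39 chromosome 11, 69833365 to 69839014, minus strand) encodes GLUT4, the insulin-responsive glucose transporter of fat and muscle. Its level was 202, 137, 166, 32.9 and 81.1 CPM in high-fat tea mice, 97.9, 148, 162, 76.7 and 234 CPM in high-fat water mice, 191, 139.5, 82.5, 168 and 129 CPM in chow tea mice and 45.5, 121, 95.7, 153 and 110.2 CPM in chow water mice. All 4 groups overlapped widely. The log2 difference was 0.45 for diet in water (95% interval −0.41 to 1.31, edgeR adjusted p = 0.482), −0.21 for tea on the high-fat diet (−1.07 to 0.65, 0.806), 0.44 for tea on chow (−0.42 to 1.30, 0.727) and −0.20 for diet in tea (−1.06 to 0.66, 0.864). A difference of Slc2a4 between groups was therefore not detected at this spread between mice, and the intervals leave room for changes in either direction.

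The spread of Slc2a4 ran along with other transcripts. The libraries with the most muscle transcripts in their group, high-fat tea 1, high-fat water 5 and chow tea 1, were also the highest for Slc2a4 in their group, whereas in chow water mice the most muscle-rich library, 2, came after library 4. The 3 libraries with the fewest adipocyte markers included the lowest Slc2a4 library of 3 groups, high-fat tea 4, high-fat water 4 and chow water 1. In the 6 libraries with muscle transcripts Slc2a4 ran from 121 to 234 CPM, and in the other 14 from 32.9 to 168 CPM. Without these 6 the group means were 83.6 ± 52.0 CPM in high-fat tea mice (n = 3), 107 ± 36.4 CPM in high-fat water mice (n = 3), 130 ± 35.7 CPM in chow tea mice (n = 4) and 101 ± 44.2 CPM in chow water mice (SD, n = 4), and the diet difference in water was 0.06 (edgeR adjusted p = 0.955). Muscle also expresses Slc2a4, and the part of muscle in these values was not tested.

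**Figure D4:**
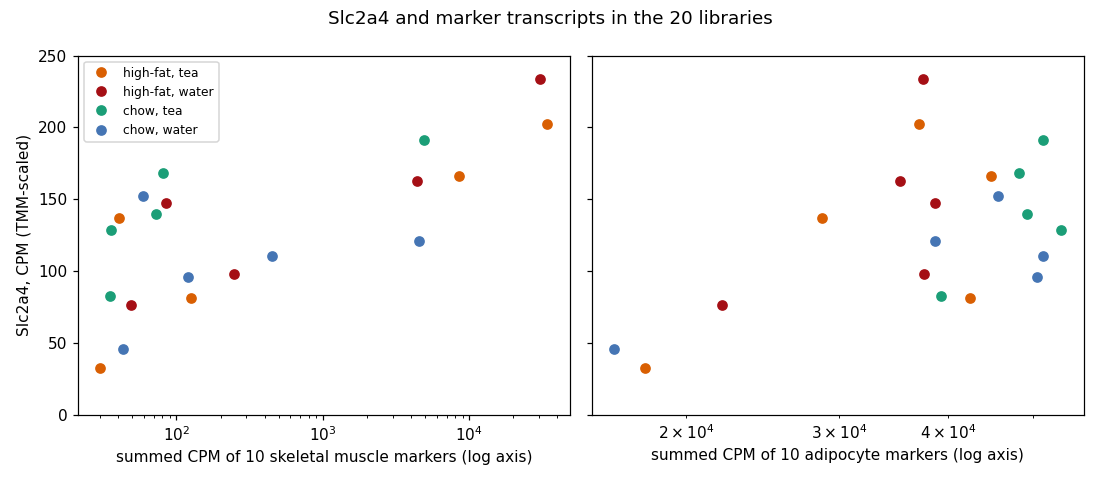
Slc2a4 in TMM-scaled CPM against the summed CPM of 10 skeletal muscle markers (left) and 10 adipocyte markers (right, both on log axes), with 1 point per library coloured by group. The 6 libraries with over 1000 CPM of muscle markers lie at 121 to 234 CPM of Slc2a4, and the 3 with the fewest adipocyte markers at 32.9 to 76.7 CPM.

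Slc2a1 (GRCm39 chromosome 4, 118965908 to 118995180, plus strand) encodes GLUT1, which carries glucose without insulin in most cell types. Its level was 22.6, 20, 24.5, 22.9 and 17.9 CPM in high-fat tea mice, 13.7, 14.6, 18.3, 19.9 and 14.7 CPM in high-fat water mice, 27.2, 23.1, 22.7, 26.9 and 33.8 CPM in chow tea mice and 15.6, 25.8, 19.1, 20.9 and 27 CPM in chow water mice. The high-fat water libraries were low as a group, but chow water 1 and 3 reached into their range. The log2 difference was −0.42 for diet in water (95% interval −0.74 to −0.09, edgeR adjusted p = 0.0801) and 0.41 for tea on the high-fat diet (0.08 to 0.74, 0.125), neither called. The diet difference was called by DESeq2 (−0.45, adjusted p = 0.0387) and by edgeR in 2 settings, without chow water 1 (edgeR adjusted p = 0.0185) and without the 3 libraries with the fewest adipocyte markers (−0.60, edgeR adjusted p = 0.0112). Per exonic length Slc2a4 exceeded Slc2a1 by 5.76 ± 2.88 times in high-fat tea mice, 9.24 ± 4.46 times in high-fat water mice, 5.40 ± 1.55 times in chow tea mice and 4.84 ± 1.62 times in chow water mice (RPKM ratio, SD, n = 5 each), and the groups overlapped.

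Trarg1 (GRCm39 chromosome 11, 76570634 to 76589490, plus strand) encodes a membrane protein of GLUT4 vesicles that regulates their traffic in fat cells. Its level was 505, 382, 559, 194 and 845 CPM in high-fat tea mice, 774, 795, 642, 462 and 713 CPM in high-fat water mice, 243, 450.4, 277, 338 and 386 CPM in chow tea mice and 204, 417, 554, 509 and 719.7 CPM in chow water mice. High-fat water libraries were mostly high, chow tea libraries were low, and every pair of groups that was compared overlapped. Log2 differences were 0.49 for diet in water (95% interval −0.21 to 1.19, edgeR adjusted p = 0.331), −0.45 for tea on the high-fat diet (−1.15 to 0.25, 0.45) and −0.50 for tea on chow (−1.20 to 0.20, 0.581), none called.

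Other genes of the pathway were taken from 5 lists with 87 genes, of which 86 were tested. On the high-fat diet in water, 14 were called higher and 8 lower, against 8.06% and 7.11% of all genes, and the lists' median log2 change was 0.01. With tea on the high-fat diet, 1 was called higher and 4 lower, against 2.06% and 2.3% of all genes, at a median of 0.04. In the other 3 comparisons edgeR called none, with 18 of 86 at an unadjusted p below 0.05 for diet in tea (16.3% of all genes), 13 for tea on chow (12.4%) and 17 for the interaction (15%). Without the 6 libraries with muscle transcripts no gene of the whole table was called for tea on the high-fat diet, so each tea call below is lost in that setting. All 5 tea calls were also lost with only the groups compared, and without 9 libraries (those 6 and the 3 with the fewest adipocyte markers). With no filter on low counts 3 of the 5 were lost, with the replicate block 1, and without the 3 libraries 1. DESeq2 kept all 5.

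Most of the diet calls described below were also lost without the 6 libraries with muscle transcripts, in a fit on fewer mice. Of 15 pathway genes described below with a call for diet in water, Grb2, Slc2a10 and Slc2a12 kept it in each of the 8 alternative settings. Without the 6 libraries with muscle transcripts 11 lost it, at edgeR adjusted p values of 0.129 for Cav1, 0.105 for Grb10, 0.0636 for Pik3cd, 0.132 for Gsk3b, 0.154 for Rptor, 0.0645 for Ralgapa2, 0.149 for Myo1c, 0.266 for Ehd2, 0.13 for Slc2a5, 0.121 for Nfic and 0.132 for Hif1a. Without 9 libraries (these 6 and the 3 with the fewest adipocyte markers) 6 lost it, namely Klf15 (edgeR adjusted p = 0.0651), Gsk3b, Rptor, Ehd2, Slc2a5 and Nfic. Hif1a, Rptor and Ehd2 also lost it with no filter on low counts, Ehd2 with only the groups compared, and Ehd2 and Slc2a5 with the replicate block.

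Among the receptor's other adaptors and brakes, 3 of 19 tested genes rose and 2 fell on the high-fat diet in water, at a median log2 change of 0.03. Cav1, the caveolin of fat cell membranes, averaged 2096 ± 480 CPM in high-fat water mice and 747 ± 307 CPM in chow water mice (SD, n = 5 each; log2 1.49, edgeR adjusted p = 0.01). Grb2, an adaptor to the Ras pathway, averaged 101 ± 17.4 CPM and 68.3 ± 5.56 CPM in the same 2 groups (log2 0.56, edgeR adjusted p = 0.00267). Grb10, an inhibitor of the receptor related to Grb14, went the other way, with 97.6 ± 10 CPM in high-fat water mice and 187 ± 70.5 CPM in chow water mice (log2 −0.94, edgeR adjusted p = 0.0221). Grb10 lost its call without chow water 3 or 5 or high-fat water 1 or 2, at −1.10 to −0.73 over all fits that left out 1 library. The other calls, named after their values were seen, were Gab1 at 0.51 and Sh2b2 at −1.60. With tea on the high-fat diet Cav1 fell to 833 ± 433 CPM in high-fat tea mice, against 2096 ± 480 CPM in high-fat water mice (log2 −1.33, edgeR adjusted p = 0.0402), and Grb2 fell to 69.2 ± 7.84 CPM, against 101 ± 17.4 CPM (log2 −0.54, edgeR adjusted p = 0.0112). The Cav1 call with tea was lost in 8 of 10 fits that left out 1 library, all but those without high-fat tea 5 or high-fat water 4, at log2 values of −1.64 to −1.14.

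In the PI3 kinase and Akt list, 4 of 23 genes rose and 2 fell on the high-fat diet in water, at a median of −0.07. Pik3cd, the PI3 kinase catalytic subunit of white blood cells, averaged 26.6 ± 5.7 CPM in high-fat water mice and 12.6 ± 3.42 CPM in chow water mice (log2 1.08, edgeR adjusted p = 0.00373), beside the higher macrophage markers given above. Gsk3b, a kinase that Akt inhibits, and Rptor, a subunit of the mTORC1 complex, rose by 0.36 and 0.30 on the log2 scale, Rptor losing its call without chow water 2. Deptor at 1.09, Foxo3 at −0.54 and Pde3b at −1.17 were the other calls, named after their values were seen.

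Of 20 genes of GLUT4 vesicle traffic, 2 rose and 1 fell on the high-fat diet in water, at a median of 0.13. Ralgapa2, a subunit of the Akt-regulated RalA inhibitor, averaged 71.3 ± 15.9 CPM in high-fat water mice and 157 ± 48.4 CPM in chow water mice (log2 −1.14, edgeR adjusted p = 0.00938). Myo1c, a vesicle motor, and Ehd2, a protein of caveolae, rose by 0.68 and 1.04 on the log2 scale, where Myo1c lost its call without high-fat water 1, and Ehd2 lost it in 8 of 10 fits without 1 library (0.79 to 1.27), all but those without chow water 5 or high-fat water 4. With tea on the high-fat diet Rala, the GTPase that tethers GLUT4 vesicles, fell to 39 ± 2.86 CPM in high-fat tea mice, against 52.9 ± 2.99 CPM in high-fat water mice (log2 −0.44, edgeR adjusted p = 0.034). Rala lost the call in 7 of 10 fits without 1 library, all but those without high-fat tea 4 or 5 or high-fat water 5.

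Among 11 other hexose transporters, 2 rose and 2 fell on the high-fat diet in water, at a median of −0.04. Slc2a10 averaged 7.8 ± 2.72 CPM in high-fat water mice and 3.14 ± 0.83 CPM in chow water mice (log2 1.31, edgeR adjusted p = 0.00438), and Slc2a12 5.66 ± 2.2 CPM and 2.27 ± 0.805 CPM (log2 1.31, edgeR adjusted p = 0.0114). Slc2a3, named after its values were seen, was called at −1.16 on the log2 scale. With tea on the high-fat diet Slc2a10 fell to 3.6 ± 1.19 CPM in high-fat tea mice, against 7.8 ± 2.72 CPM in high-fat water mice (log2 −1.12, edgeR adjusted p = 0.0269), and lost the call without high-fat tea 1, 2 or 3 or high-fat water 1 or 2.

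The fructose transporter Slc2a5 had 0.419, 1.62, 0.188, 92.3 and 0.125 CPM in high-fat tea mice, 0.0734, 0.25, 0.184, 0.267 and 0.166 CPM in high-fat water mice, 1.4, 1.6, 1.61, 1.24 and 1.86 CPM in chow tea mice and 45.5, 9.3, 0.666, 3.09 and 2.12 CPM in chow water mice. It was called for diet in water (log2 −5.99, edgeR adjusted p = 0.0239) and for tea on the high-fat diet (log2 6.64, edgeR adjusted p = 0.0384). High-fat tea 4 with its kidney transcripts and chow water 1 with its pancreas transcripts held the highest values. Next came chow water 2 at 9.3 CPM, a library with 2078 CPM of kidney markers that the fit without 3 libraries keeps. The part of these transcripts in the Slc2a5 values was not tested. Without the 3 libraries with the fewest adipocyte markers the difference for diet was −4.48 (edgeR adjusted p = 0.00243) and that for tea 1.81 (edgeR adjusted p = 0.168). Over the fits without 1 library the difference for diet ran from −6.30 to −4.35 and lost its call without chow water 1 or high-fat water 1, 2, 3 or 5, and that for tea ran from 1.64 to 6.95 and lost its call without high-fat tea 2 or 4 or any of the 5 high-fat water libraries.

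Of 13 transcription factors tied to Slc2a4 or to insulin and glucose, 3 were called higher and 1 lower for diet in water. Of all genes 8.06% and 7.11% were. Called or not, 7 of the 13 had a positive change and 6 a negative one, at a median of 0.05. Klf15, a factor linked to Slc2a4 expression, had 19.2, 46.5, 54.6, 20.9 and 56 CPM in high-fat water mice and 153, 119.9, 133, 91.5 and 57.3 CPM in chow water mice, groups that did not overlap (log2 −1.49, edgeR adjusted p = 0.00693). Nfic and Hif1a rose by 0.76 and 0.33 on the log2 scale (edgeR adjusted p = 0.0101 and 0.0183), and Mef2c at 1.29 was the last call, named after its values were seen. Hif1a lost its call without high-fat water 1. With tea on the high-fat diet none of the 13 was called by edgeR, with 4 at an unadjusted p below 0.05, against 23.6% of all genes.

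**Figure D5:**
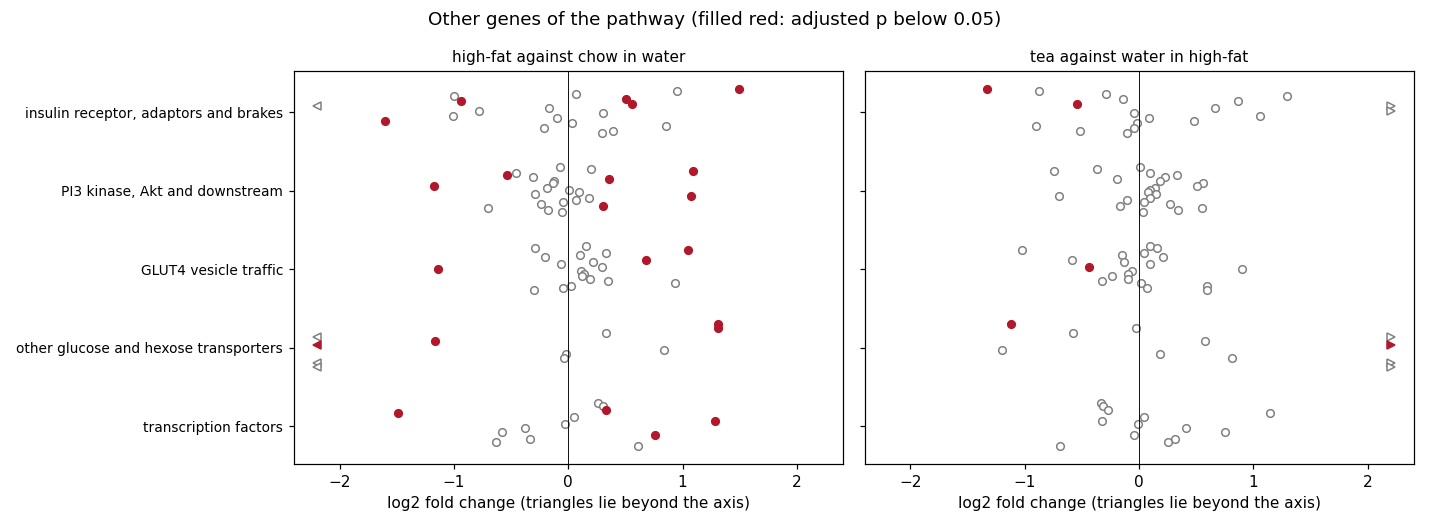
Log2 change of each other pathway gene by list for diet in water (left) and tea on the high-fat diet (right), filled red where the adjusted p was below 0.05, with triangles beyond the axis. On the left 14 genes are called higher and 8 lower of 86, and on the right 1 higher and 4 lower.

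Over the 20 libraries the genes whose level ran closest to Slc2a4, by the root mean square difference of log2 CPM after centring each gene, were Rxrg at 0.32, Pfkfb1 at 0.34, Hk2 at 0.35, Cib2 at 0.37 and Gyg at 0.37, out of 12125 genes searched. The nearest of the other 9 pathway members was Tbc1d4, at 0.43. All of these values come from the same libraries, with their shared depth and muscle and adipocyte content.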

How the data were processed

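The authors deposited 1 table per library with raw counts of reads per gene. The submitters' processing notes list featureCounts 2.0.6, HISAT2 2.2.1 and fastp 0.23.2 and give the build as mm10. Per the file headers, featureCounts used the GENCODE vM32 annotation of GRCm39, summed exons by gene name, and set neither a strand option nor the option that counts read pairs once. Of counts from 1 to 20, 68.1% to 72.2% per library were even, so counts overstate independent fragments, and reads from opposite strands cannot be told apart.

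From these counts, filterByExpr of edgeR 4.0.16 in R 4.3.3 kept 21306 genes and removed 35499 (minimum count 10 in 5 libraries, scaled to a median-sized library, and 15 summed over libraries). Group means over all 20 libraries were fitted with TMM scaling, the quasi-likelihood F test and Benjamini-Hochberg adjustment over all genes tested, with calls below 0.05. SEs and 95% intervals were derived from F and the log2 change. The steps were tested on simulated counts in which no single library held added transcripts of other organs, so that test does not cover such libraries. Alternatives were RLE scaling, DESeq2 1.42.0, no filter, only the groups compared, a replicate block, and leaving out libraries. Leaving out the 6 muscle libraries was chosen after seeing the data. The libraries with the fewest adipocyte markers, left out by themselves or with those 6, were likewise picked by marker levels in these data. No pair of replicates agreed within sampling noise (lowest chi-square per gene 68.7 over 40 pairs). Libraries of a group come from separate mice, so p-values reflect differences between mice, tissue sampling and library preparation.

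The 10 genes, the pathway lists and the marker lists were chosen with earlier results of these data known. By rule the text names the 10 genes, from each list and comparison up to 3 called genes with the lowest p, and the 5 genes nearest to Slc2a4 with a mean log2 CPM of at least 1. Any other pathway gene is marked as named after its values were seen.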

Additional observations from a re-analysis of the deposited data

Results flagged for a closer look

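Of 104 sets of 5 libraries checked, 8 had 1 library far from the other 4, and chance flags about 1 in 20 such sets. Among the 10 genes this held for 2 of 40. Akt2 was 206 CPM in high-fat tea 4, against 492 to 594 CPM in the other high-fat tea libraries. Irs1 was 89.5 CPM in chow tea 1, against 39.9 to 50.9 CPM in the other chow tea libraries. High-fat tea 4 is the library with kidney transcripts and few adipocyte markers, and chow tea 1 held 4885 CPM of muscle markers. The part of these transcripts in both values was not tested.

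Among the other pathway genes, Slc2a5 was 92.3 CPM in high-fat tea 4, against 0.125 to 1.62 CPM in the rest of its group, and 45.5 CPM in chow water 1, against 0.666 to 9.30 CPM. Grb2 was 131 CPM in high-fat water 1, against 85.9 to 96.5 CPM. Slc2a12 was 9.49 CPM in high-fat water 5, against 3.98 to 5.41 CPM. Rala was 33.3 CPM in chow tea 3, against 36.8 to 38.1 CPM, and Rptor was 47.8 CPM in high-fat tea 1, against 45.0 to 45.7 CPM.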

How the results depend on the processing

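Of the 10 genes, 2 were called for diet in water. The count was 1 without a filter on low counts, 4 without the 3 libraries with the fewest adipocyte markers, 1 without the 6 muscle libraries, 3 with DESeq2 and 3 without 9 libraries (those 3 and the 6 together), and 1 to 3 over fits without 1 library. For tea on the high-fat diet 1 was called, 0 without a filter, with only the groups compared, without the 6 or without the 9 libraries, 2 without the 3 libraries, and 0 to 1 over fits without 1 library. In the other 3 comparisons the count was 0 in every setting run. The Insr difference for tea lost its call with no filter (0.59, edgeR adjusted p = 0.086), with only the groups compared (0.57, 0.093) and without the 9 libraries (0.69, 0.175). The Grb14 difference for diet in water lost it with no filter (1.61, 0.0645), only the groups compared (1.62, 0.0501), without the 6 (2.03, 0.0608) and without the 9 libraries (2.08, 0.0765). Without the 9 libraries, Irs1 (−1.05, edgeR adjusted p = 0.0113) and Tbc1d4 (−0.67, 0.0498) were called for diet in water, and with only the groups compared Irs2 was (−0.79, 0.0258). All genes called numbered 613 without the 6 libraries and 2052 without the 9, against 3232, for diet in water, and 0 and 13, against 928, for tea on the high-fat diet, which are fits on fewer libraries. For tea on the high-fat diet they numbered 2444 with DESeq2, 408 without a filter, 21 with only the groups compared and 1602 without the 3. The cause of the other moves was not tested.

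Log2 differences that turned direction were all uncalled. Without the 3 libraries they were Irs1 interaction 0.067, Irs2 tea on chow −0.062, Pik3r1 diet in tea 0.039, Pik3r1 diet in water 0.028, Slc2a4 diet in tea 0.047, Tbc1d4 interaction 0.22. Without the 6 they were Akt2 diet in tea −0.16, Irs2 tea on chow −0.24, Irs2 tea on high-fat −0.13, Slc2a1 interaction −0.0026, Trarg1 interaction −0.034. Without the 9 they were Insr tea on chow −0.00042, Irs1 interaction 0.38, Irs1 tea on chow −0.16, Irs2 tea on chow −0.44, Pik3r1 tea on high-fat 0.041, Tbc1d4 interaction 0.54, Tbc1d4 tea on chow −0.071. With the replicate block it was Trarg1 interaction −0.056. Over fits without 1 library the ranges were Akt2 diet in tea −0.051 to 0.23, Akt2 tea on chow −0.24 to 0.078, Grb14 interaction −0.55 to 0.084, Irs1 interaction −0.47 to 0.028, Irs2 interaction −0.11 to 0.35, Irs2 tea on chow −0.20 to 0.25, Irs2 tea on high-fat −0.021 to 0.34, Pik3r1 diet in tea −0.14 to 0.039, Pik3r1 interaction −0.065 to 0.13, Slc2a4 diet in tea −0.45 to 0.046, Slc2a4 tea on high-fat −0.46 to 0.033, Tbc1d4 diet in water −0.34 to 0.0065, Tbc1d4 interaction −0.28 to 0.069, Tbc1d4 tea on chow −0.0074 to 0.29, Tbc1d4 tea on high-fat −0.085 to 0.21, Trarg1 interaction −0.22 to 0.30. Same-numbered libraries correlated at −0.27 to 0.39 in their deviations from the group means. Libraries of different numbers were not compared, so these values cannot show whether the numbers pair mice. The replicate block gave 2, 1, 0, 0 and 0 called genes. RLE scaling changed no call of the 10 genes. Each of the 10 genes had 114 reads or more in every library, so no value rests on a few reads.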
